A study of Mus musculus with 8 samples.

Results

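Pura, the gene of the purine-rich element binding protein Pur-alpha, and its downstream neighbour Igip were described in the aging mouse brain, together with the next genes on the same chromosome (Cystm1, Pfdn1 and Hbegf) and the other 2 genes of the PUR family (Purb and Purg). Pura and Igip were chosen by their fall between 6 and 24 months in these same libraries, so their change is given as a description, with no test. The 3 neighbours were taken for their position and the 2 paralogs for their family. These are 7 of the 22430 genes in the count table, and all 7 passed the filter on low counts that left 16730 genes tested.

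The libraries came from brains of 8 male C57Bl/6JRj mice, 4 young adults (6m) and 4 aged animals (24m), with no treatment or genotype named. The labels call the tissue both whole brain and brain hemisphere. Polyadenylated RNA was sequenced with a directional kit. In such bulk tissue, fewer cells of a type and less RNA per cell cannot be told apart.

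PUR proteins bind single-stranded DNA and RNA rich in GGN repeats, where N is any base. In neurons, Pur-alpha is known as a part of the RNA granules that kinesin motors carry along dendrites, and loss of 1 copy of the human gene causes the neurodevelopmental disorder PURA syndrome. Igip encodes a short secreted peptide named for its ability to induce immunoglobulin A (IgA) production by B cells. Of the neighbours, Pfdn1 encodes a subunit of prefoldin, which hands unfolded actin and tubulin to the chaperonin CCT, and Hbegf encodes a membrane-anchored growth factor that activates the epidermal growth factor (EGF) receptor once it is shed. Cystm1 encodes a small protein with a cysteine-rich transmembrane module.

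Library totals ranged from 63460940 to 103462414 counts. Replicate 1 of 24m was the deepest and stood apart: its mean Spearman rho was 0.9795 with the other aged libraries and 0.9781 with the young ones, while the other 7 libraries had 0.9858 to 0.9961 with their own age and 0.9346 to 0.9648 with the other. Calls named here that change without it are given both ways. Defining markers of the brain were present in every library. The summed level of 6 neuronal markers was 2164 to 2706 CPM (counts per 1000000, scaled between libraries by trimmed means of M values, TMM) at 6m and 2978 to 3431 at 24m, and that of 5 astrocyte markers 281 to 305 and 409 to 624. Of the marker genes, 3 of 6 for neurons, 4 of 5 for astrocytes, 2 of 5 for microglia, 1 of 5 for oligodendrocytes, and 1 of 4 each for endothelium and choroid plexus were called higher, and 1 endothelial gene lower, where 25.3% of all genes tested were called higher and 18.3% lower. The summed choroid plexus markers were at 1772 to 3197 CPM at 6m and 808 to 2245 at 24m. Ttr, the most abundant of them, was at 2452 and 1416 CPM on average (log2 fold change -0.79 ± 0.33, not called) and Folr1 at 19.3 and 10.7 (-0.85 ± 0.34, not called), and both were called lower without replicate 1 of 24m, at -1.08 and -1.25. In the same list Kl went the other way, from 4.27 to 12.3 CPM (1.53 ± 0.14, called higher). The neuronal marker Snap25 was called higher without that library (0.71). The haemoglobin genes and Alas2, markers of red blood cells, were called lower for 5 of 5 genes, beside the same 18.3%, with sums of 5426 to 7605 CPM at 6m and 1242 to 4156 at 24m.

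Pura was lower at 24m in every library. It had 131, 102, 111 and 136 CPM in replicates 1 to 4 of 6m and 31.1, 33.6, 31.3 and 29.0 CPM in those of 24m. These were 6679 to 9007 raw counts at 6m and 2527 to 3223 at 24m. The lowest young library lay well above the highest aged one, and replicate 1 of 24m was not apart from the others for this gene. The mean went from 119.9 ± 16.4 CPM to 31.2 ± 1.89 CPM (SD, n = 4 each), a level at 24m that was 26% of that at 6m. The log2 fold change (24m minus 6m, from the fit over all genes) came to -1.94 ± 0.11 (SE), and -1.93 without replicate 1 of 24m. The red blood cell markers were lower at the same age, and among neuronal markers Syt1, Gad1 and Gad2 were called higher. Rbfox3 was at 272 CPM at 6m and 213 at 24m (-0.35 ± 0.07, below the fold threshold). With a trend over gene length removed Rbfox3 was called lower (-0.84 ± 0.15). The part of these markers in the result was not tested.

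Igip had 31.8, 27.0, 29.2 and 26.9 CPM in the young libraries and 9.26, 8.47, 7.13 and 6.20 CPM in the aged ones. Here too the ages did not overlap, and replicate 1 was the highest of the aged libraries. The mean was 28.7 ± 2.33 CPM at 6m and 7.77 ± 1.36 CPM at 24m (SD, n = 4 each), with a log2 fold change of -1.89 ± 0.14 (SE) and of -1.97 without replicate 1 of 24m. Across all tested genes, the 4 aged libraries lay entirely below the 4 young ones for 26.8%, and this separation held for 6 of the 7 genes described here, Hbegf being the exception. For Pura and Igip it follows from how they were chosen.

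**Figure D1:**
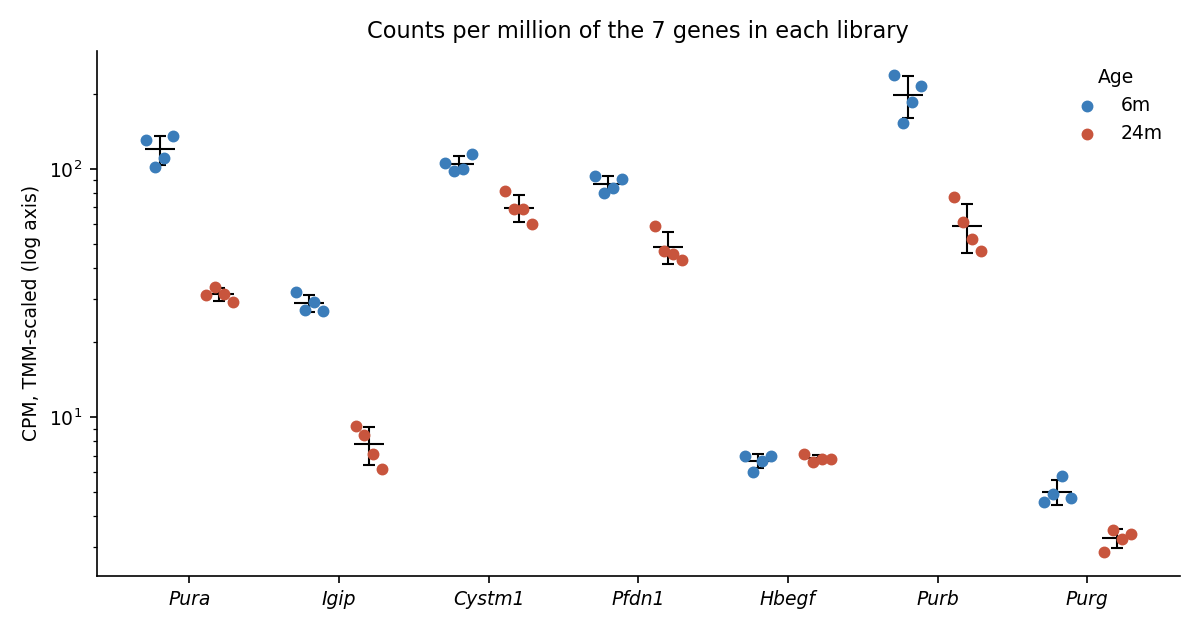
TMM-scaled CPM (log axis) of each of the 7 genes in 4 libraries of 6m (blue) and 4 of 24m (red), with black bars for mean ± SD. Pura, Igip and Purb have wide gaps between the ages, Cystm1, Pfdn1 and Purg narrow ones, and the values of Hbegf overlap.

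The 2 genes lie next to each other on chromosome 18 of GRCm39 in the same orientation. Pura (ENSMUSG00000043991) spans 36413537 to 36425588 on the plus strand and Igip (ENSMUSG00000110185) spans 36431732 to 36434570, with 6143 bases between them. Igip is annotated with 1 exon and 1 transcript of 2839 bases, of which 159 code for 53 residues. Pura has 4 annotated transcripts, and its 321 residues come from 1 coding exon. A gene-level count does not tell a transcript that starts at Igip from one that runs on from Pura. An antisense long noncoding RNA, Gm58393, overlaps Pura on the other strand and was not a row of the table.

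Since scaling between libraries cancels in a ratio of 2 genes within a library, the counts of Igip were set against those of Pura. Both genes were chosen for a large fall in these libraries, so a like ratio at both ages follows in part from that choice, as does a gain of less changed genes relative to Pura. The ratio was 0.243, 0.265, 0.263 and 0.197 in 6m and 0.298, 0.252, 0.228 and 0.214 in 24m. The ranges overlap, with means of 0.242 ± 0.0316 and 0.248 ± 0.0366 (SD, n = 4 each). Purb per Pura was 1.65 ± 0.144 at 6m and 1.89 ± 0.395 at 24m, where replicate 1 had 2.47 and the others 1.61 to 1.81. Purg per Pura went from 0.0346 to 0.0524 at 6m to between 0.0922 and 0.117 at 24m, without overlap, so Purg gained relative to Pura. The neighbours did so too, with 0.808 to 0.967 counts of Cystm1 per count of Pura at 6m against 2.05 to 2.61 at 24m, and 0.669 to 0.788 of Pfdn1 against 1.39 to 1.90.

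**Figure D2:**
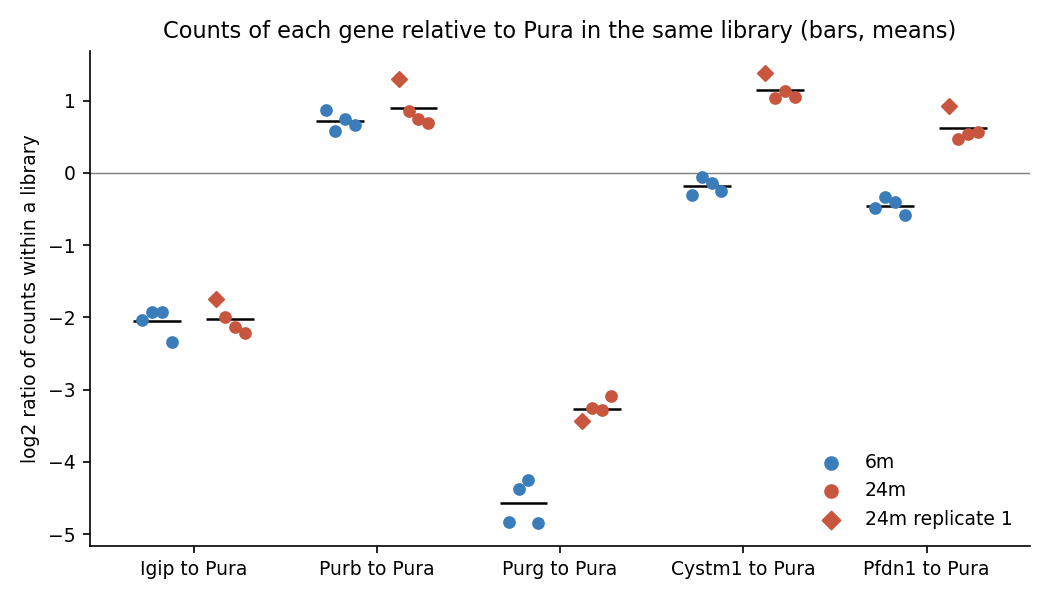
Log2 ratio of the counts of each gene to those of Pura in the same library, for 4 libraries of 6m (blue) and 4 of 24m (red), with replicate 1 of 24m as a diamond and bars for means. Igip and Purb keep overlapping ratios at both ages, while Purg, Cystm1 and Pfdn1 are higher relative to Pura at 24m.

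Purb, which encodes Pur-beta, a close relative of Pur-alpha with the same kind of nucleic acid binding, fell with age. Its level was 239.9, 153, 186 and 215 CPM at 6m and 76.8, 60.9, 52.3 and 46.6 CPM at 24m, so that the ages did not overlap, and replicate 1 was the highest library of its age in both groups. The mean fell from 198 ± 37.7 to 59.2 ± 13.2 CPM (SD, n = 4 each), a log2 fold change of -1.74 ± 0.18 (SE, 95% interval -2.15 to -1.34), with a Benjamini-Hochberg adjusted p of 7.61e-05 by the quasi-likelihood test of edgeR. Over the other processing settings the log2 fold change was -2.05 to -1.53 and the adjusted p 7.22e-18 to 0.000557. Purb (ENSMUSG00000094483) lies on chromosome 11, 6417599 to 6425917, minus strand, far from any other gene described here, and has a single exon of 8319 bases.

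The bases before the Purb start are shown because they are the densest in GGN repeats, the letters PUR proteins are known to bind, among the 7 promoters. The letters searched were GGNGGNGGN on both strands, with overlapping matches counted, from 250 bases before to 50 bases after each annotated gene start in GRCm39. The Purb window held 11 matches, all on the strand of the gene, and 1.18% of 21770 protein-coding promoters held as many. At least 1 match was in 48.5% of all these promoters. Pura and Igip had 2 matches each, Cystm1 and Hbegf 3 each, Pfdn1 1, and Purg 0. GC content differed widely, from 32.3% in the Igip window and 78.3% in that of Pura to 84.0% in that of Purb, against a median of 54.3%. The stretch from 228 to 199 bases before the Purb start (GRCm39 chr11:6426116-6426145, minus strand, read 5′ to 3′) reads as follows, with the bases of 3 overlapping matches in capitals.
Purb: tgggtcttccggccgGGAGGCGGCGGCGGG
A match describes letters in a window and not a site that is bound.

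Purg, the gene of Pur-gamma, was the rarest of the family and fell less. It had 4.57, 4.92, 5.81 and 4.72 CPM at 6m and 2.87, 3.52, 3.22 and 3.39 CPM at 24m. All aged libraries lay below all young ones by a narrow margin. The mean fell from 5.01 ± 0.552 to 3.25 ± 0.283 CPM (SD, n = 4 each), which is -0.62 ± 0.13 as a log2 fold change (SE, 95% interval -0.91 to -0.34), with an adjusted p of 0.00216 by edgeR. The fold threshold of 0.58 was missed without replicate 3 of 6m (-0.54), without replicate 1 of 24m (-0.56) and with library totals in place of TMM (-0.40). Purg (ENSMUSG00000049184) lies on chromosome 8, 33875620 to 33909462, plus strand, and overlaps Wrn on the other strand. Wrn, a DNA helicase gene, moved the opposite way, from 1.29 ± 0.349 to 2.40 ± 0.804 CPM (0.89 ± 0.28 as a log2 fold change, adjusted p 0.0182 by edgeR). Whether strand was used in counting was not stated, and a part of Wrn reads in the Purg count was not tested.

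The 3 PUR genes summed to 323 ± 52.7 CPM at 6m and 93.7 ± 13.8 CPM at 24m (SD, n = 4 each), which is 29.0% of the young level. Pura held 34.9 to 39.3% of that sum at 6m and 28.1 to 36.7% at 24m, and Purb 58.8 to 63.9% and 59.0 to 69.3%. The share of Purg was 1.22 to 1.92% at 6m and 2.59 to 4.30% at 24m, with no overlap. As Pura was chosen for its fall, the lower sum and the larger share of Purg follow in part from that choice. The paralogs share coding sequence, and how reads with several matches were counted was not stated, so a transfer of reads between Pura and Purb cannot be told apart from their own levels.

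Per kilobase of annotated exons, the levels at 6m were in the order Purb (23.8 ± 4.53 CPM per kb), Pfdn1 (21.1 ± 1.49), Pura (18.9 ± 2.58), Cystm1 (14.9 ± 1.04), Igip (10.1 ± 0.821), Hbegf (1.30 ± 0.0868) and Purg (0.550 ± 0.0607, SD, n = 4 each). Purb, Pfdn1 and Pura overlapped with their neighbours in this order, and so did Pura, at 16.1 to 21.5, with Cystm1, at 14 to 16.3. At 24m the order was Pfdn1 (11.7 ± 1.72), Cystm1 (9.88 ± 1.24), Purb (7.11 ± 1.58), Pura (4.93 ± 0.298), Igip (2.74 ± 0.480), Hbegf (1.34 ± 0.0427) and Purg (0.357 ± 0.0311), with overlap between Pfdn1 and Cystm1 and between Cystm1 and Purb. Annotated exons of Cystm1 sum to 7052 bases but its canonical transcript has 991, and those of Pfdn1 to 4140 against 1120. On canonical lengths Cystm1 (106 ± 7.40 CPM per kb) and Pfdn1 (77.8 ± 5.52) were therefore the highest of the 7 at 6m. Purb, Pura and Purg kept their order on either length.

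Among the neighbours beyond Igip, Pfdn1 fell with age. It had 93.5, 80.2, 83.9 and 91.1 CPM at 6m and 59.0, 46.6, 45.4 and 43.0 CPM at 24m, with replicate 1 again the highest aged library and no overlap. The mean fell from 87.2 ± 6.19 to 48.5 ± 7.14 CPM (SD, n = 4 each), by a log2 fold change of -0.85 ± 0.11 (SE, 95% interval -1.09 to -0.60, edgeR adjusted p 0.00023). Pfdn1 (ENSMUSG00000024346) lies at 36536729 to 36587588 on the minus strand, 111141 bases from Pura.

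Cystm1 (ENSMUSG00000046727, 36475573 to 36536150, plus strand) ends 578 bases from the end of Pfdn1, so that the 2 genes are transcribed towards each other. It had 106, 98.4, 100.4 and 115 CPM at 6m and 81.2, 68.9, 68.8 and 59.8 CPM at 24m. The ages did not overlap, but the gap between the lowest young and the highest aged library was smaller than for Pfdn1 relative to the level. The mean fell from 105 ± 7.34 to 69.7 ± 8.77 CPM (SD, n = 4 each), a log2 fold change of -0.59 ± 0.10 (SE, 95% interval -0.82 to -0.36, edgeR adjusted p 0.000967). That value is at the edge of the fold threshold and was under it without replicate 4 of 6m (-0.54), without replicate 4 of 24m (-0.52) and with library totals alone (-0.38).

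Hbegf (ENSMUSG00000024486, 36637980 to 36649677, minus strand), 212392 bases from Pura, had 7.01, 6.04, 6.65 and 6.95 CPM at 6m and 7.14, 6.63, 6.80 and 6.78 CPM at 24m. The ages overlapped, with means of 6.66 ± 0.443 and 6.84 ± 0.218 CPM (SD, n = 4 each). The log2 fold change was 0.04 ± 0.10 (SE), at an adjusted p of 0.761 by edgeR, and its 95% interval of -0.19 to 0.26 does not reach the fold threshold on either side. Its sign depended on scaling, from -0.29 after quantile normalization (DESeq2 adjusted p 0.0411) to 0.26 with library totals alone (edgeR adjusted p 0.0376). Of the 5 genes not chosen by their change, edgeR called 4 lower (Cystm1, Pfdn1, Purb and Purg), where 18.3% of all genes tested were called lower. They were picked with results of these data known, and so few genes allow no more than the values given.

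Going outward from Pura, the region was read by position alone. All 25 genes of the table within 500 kb of Pura were tested, and 10 were called lower and 1 higher. Their median log2 fold change was -0.30, and over all genes tested 18.3% were called lower. Without the 5 genes described above the figures were 6 lower and 1 higher of 20, with a median of -0.23. On the rest of the chromosome 46 of 423 tested genes were called lower (10.9%) and 175 higher, with a median of 0.38, and over all genes 25.3% were called higher with a median of -0.0034. Without those 5 genes, 1 of 2 genes within 250 kb was called lower, and within 1000 kb 9 of 51 were called lower and 9 higher.

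Upstream of Pura the nearest gene, Nrg2, a neuregulin ligand of ErbB receptors, had 16.1 ± 2.16 CPM at 6m and 15.7 ± 0.877 at 24m, so its log2 fold change was -0.03 ± 0.11 (SE), at an adjusted p of 0.815 by edgeR. Psd2, a guanine nucleotide exchange factor of neurons, was the only gene of the region called higher. Its level rose from 19.3 to 21.2 CPM in the young libraries to 40.3, 58.2, 60.0 and 69.9 CPM in the aged ones (1.52 ± 0.15 as a log2 fold change, adjusted p 6.51e-05). Downstream of Hbegf, Slc4a9, an anion exchanger gene, was rare, at 0.844 ± 0.220 CPM and 0.437 ± 0.0701 CPM, with overlapping ages and a log2 fold change of -0.94 ± 0.24 (adjusted p 0.00742). The largest falls beyond Igip were in Eif4ebp3, an inhibitor of the cap-binding protein eIF4E (6.45 ± 0.842 to 2.23 ± 0.507 CPM, -1.53 ± 0.18, adjusted p 0.000146), and in Ndufa2, a subunit of respiratory complex I (321 ± 34.8 to 117 ± 29.0 CPM, -1.46 ± 0.16, adjusted p 0.000112). Psd2, Eif4ebp3 and Ndufa2 were picked after their values were seen. The 10 genes called lower were Pura and 9 genes downstream of it, with genes that were not called among them, such as Hbegf between Pfdn1 and Slc4a9. Only Ube2d2a, Cxxc5, Psd2 and Nrg2 lie upstream of Pura in the window, so most of the genes that could be called were downstream.

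**Figure D3:**
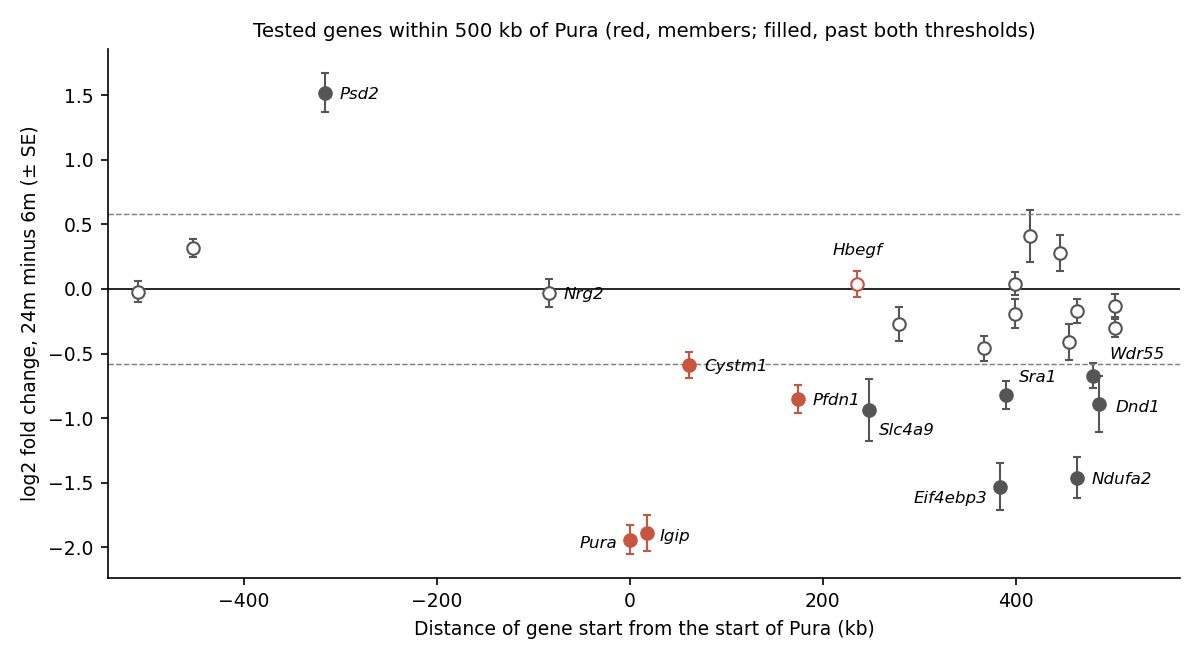
Log2 fold change (24m minus 6m) ± SE of the 25 tested genes within 500 kb, by the distance of their start from that of Pura in kb. Red points are Pura, Igip, Cystm1, Pfdn1 and Hbegf, filled points passed both thresholds, and dashed lines mark a fold change of 0.58 on the log2 scale. Pura and Igip are the lowest, and Psd2 is the one filled point above 0.

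Genes related to these, other than Cystm1, were then read from fixed lists. The prefoldin complex, to which Pfdn1 belongs, was called lower for 5 of its 6 subunits, beside 18.3% of all genes tested, and the median log2 fold change was -0.91. Pfdn5 fell from 633 to 292 CPM (-1.12 ± 0.21, edgeR adjusted p 0.00144), Pfdn2 from 318 to 159 CPM (-1.0 ± 0.12, adjusted p 0.000129), Pfdn6 from 156 to 81.4 CPM (-0.94 ± 0.11, adjusted p 0.000124) and Pfdn4 from 21.8 to 11.8 CPM (-0.88 ± 0.11, adjusted p 0.000165). Vbp1, the subunit also known as prefoldin 3, was at 9.14 and 9.5 CPM (0.06 ± 0.18, adjusted p 0.793). Pfdn1, at -0.85, had the smallest fall of the 5 subunits called lower. With a trend over gene length removed, Pfdn2 and Pfdn6 no longer passed the fold threshold and 3 subunits were called lower.

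The chaperonin CCT, the partner that receives clients from prefoldin, had smaller values in the same direction. By edgeR 0 of its 8 subunits passed both thresholds, beside 18.3% of all genes tested called lower, and DESeq2 and limma-voom also called 0. By edgeR 7 had an unadjusted p under 0.05 and the same 7 an adjusted p of at most 0.05. Over all genes tested, 29.9% were lower at such an adjusted p. The median log2 fold change was -0.37. Cct7 was at 559.8 and 377 CPM (-0.57 ± 0.12, and called lower without replicate 1 of 24m, at -0.66), Cct3 at 283 and 205 CPM (-0.47 ± 0.11), Cct2 at 258 and 187 CPM (-0.46 ± 0.07), Cct5 at 279 and 214 CPM (-0.38 ± 0.09) and Cct4 at 123 and 96.7 CPM (-0.35 ± 0.07). Tcp1 (-0.26 ± 0.07), Cct8 (-0.21 ± 0.08) and Cct6a (-0.12 ± 0.08) were nearest to 0. With library totals alone the median was -0.15 and 2 of the 8 were above 0.

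The list of neuronal RNA granule proteins, not all of them known partners of Pur-alpha, went to both sides. Of its 26 tested genes edgeR called 10 higher and 3 lower, beside 25.3% higher and 18.3% lower over all genes, and the median log2 fold change was 0.40. The highest were Ddx3x, an RNA helicase (16.0 to 49.7 CPM, 1.64 ± 0.27, edgeR adjusted p 0.000772), Kif5a, the neuronal kinesin heavy chain (474 to 1340.3 CPM, 1.5 ± 0.23, adjusted p 0.000484), and G3bp2, a stress granule protein (25.0 to 68.0 CPM, 1.44 ± 0.23, adjusted p 0.00057). The lowest were Alyref, an mRNA export factor (70.6 to 41.2 CPM, -0.78 ± 0.12, adjusted p 0.000454), Elavl4, the neuronal RNA-binding protein HuD (32.4 to 19.7 CPM, -0.72 ± 0.13, adjusted p 0.00104), and Kif5b, the kinesin heavy chain found in all tissues (109 to 66.2 CPM, -0.72 ± 0.20, adjusted p 0.011). The call of Kif5b was lost without replicate 1 of 24m and with library totals alone, while Syncrip, at 0.50 ± 0.19, was called higher without that library (0.64). The kinesin heavy chain genes did not move one way, since the third, Kif5c, rose (91.2 to 165 CPM, 0.86 ± 0.24, adjusted p 0.0102), although its ages overlapped and its call was lost with the length trend removed (0.30, adjusted p 0.136). Counts on this list moved with gene length: with that trend removed 6 were called higher and 5 lower, and with library totals alone 0 were called lower.

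Of 10 genes for transcription partners and reported DNA targets of PUR proteins, 2 were called higher and 1 lower, no larger a share than over all genes (25.3% and 18.3%). Sp1, a transcription factor of GC-rich promoters, rose from 0.949 to 3.46 CPM (1.86 ± 0.26 on the log2 scale, edgeR adjusted p 0.000335) and Rb1, the retinoblastoma protein gene, from 3.07 to 6.53 CPM (1.09 ± 0.28, adjusted p 0.00726). Acta2, smooth muscle actin, fell from 22.7 to 12 CPM (-0.92 ± 0.20, adjusted p 0.00298). Mbp, the myelin basic protein gene, was at 2060.1 and 2061 CPM (0.00 ± 0.11, adjusted p 0.997). Cdk9 (-0.47 ± 0.10), Ybx1 (-0.43 ± 0.08), E2f1 (-0.23 ± 0.10), Ccnt1 (-0.11 ± 0.13), Cdk2 (-0.09 ± 0.13) and Sp3 (0.24 ± 0.16) lay under the fold threshold.

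The next list held receptors of the ErbB family, proteases that can shed HB-EGF and the tetraspanin gene Cd9. Of 9 such genes 5 were called higher, beside 25.3% of all genes tested, and the median log2 fold change was 1.01. With the length trend removed the median was 0.56 and 4 were called, Egfr being lost (0.56), and without replicate 1 of 24m 6 were called, with Adam12 added (0.77). The receptor genes Erbb4 (0.609 to 3.54 CPM, 2.53 ± 0.44, edgeR adjusted p 0.000924), Erbb3 (4.27 to 9.70 CPM, 1.18 ± 0.25, adjusted p 0.00242) and Egfr (1.73 to 3.51 CPM, 1.01 ± 0.19, adjusted p 0.00157) rose, and so did the metalloprotease genes Adam10 (5.36 to 18.6 CPM, 1.79 ± 0.32, adjusted p 0.00109) and Adam9 (7.40 to 18.4 CPM, 1.31 ± 0.27, adjusted p 0.00245). Adam12 (0.54 ± 0.27), Erbb2 (0.24 ± 0.12), Adam17 (0.14 ± 0.15) and Cd9 (-0.17 ± 0.09), whose protein binds the HB-EGF precursor, were not called. Of 8 tested EGF family ligands, Tgfa (2.46 to 8.47 CPM, 1.78 ± 0.32, adjusted p 0.00108) and Nrg3 (4.84 to 10.7 CPM, 1.14 ± 0.31, adjusted p 0.0101) rose, beside 25.3% of all genes called higher. The ages overlapped for Nrg3, and with the length trend removed its call was lost (under the fold threshold, 0.58 after rounding). Areg, at 0.167 and 0.0345 CPM, was called lower (-2.23 ± 0.47, adjusted p 0.00259) at a level of few reads per library. Nrg1 (-0.27 ± 0.15, called lower at -0.86 with the length trend removed), Egf (0.15 ± 0.29) and Nrg4 (0.11 ± 0.36) were not called.

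On the list of genes of IgA and plasma cells, which bears on the peptide Igip is named for, levels ranged from Xbp1 at 124 and 121 CPM to Jchain, Igha and Mzb1 at under 1 CPM in all young libraries. Of 11 tested genes 2 were called higher and 2 lower, no larger a share than over all genes (25.3% higher and 18.3% lower). Jchain, which joins IgA dimers, had 0.0141 to 0.197 CPM at 6m and 4.21, 0.325, 0.12 and 0.0688 CPM at 24m, and its call (log2 fold change 3.63 ± 1.34, edgeR adjusted p 0.0381) held in only 9 of 20 alternatives. It was lost without replicate 1 of 24m (0.83 ± 0.67, adjusted p 0.291), without any 1 of the 4 young libraries, and with DESeq2 or limma-voom. Mzb1, a plasma cell chaperone, was at 6.14 CPM in that library and at 0.0688 to 0.132 in the other aged ones (2.80 ± 1.35, adjusted p 0.094), and without that library it was called lower (-1.19 ± 0.33, adjusted p 0.00767). Igha, the IgA heavy chain, was highest in the same library, at 1.60 CPM (adjusted p 0.0822). The receptor gene Tnfrsf13b rose from 0.224 to 0.452 CPM (1.02 ± 0.27, adjusted p 0.00916), while the ligand gene Tnfsf13 fell from 8.85 to 5.41 CPM (-0.71 ± 0.15, adjusted p 0.00288) and the receptor gene Tnfrsf17 from 0.596 to 0.307 CPM (-0.95 ± 0.21, adjusted p 0.00344). With the length trend removed Tnfsf13 and Tnfrsf17 were both at -0.20 and no longer called, and Tnfsf13 was not called with library totals alone either. The same length removal called Igha (1.82 ± 0.65, edgeR adjusted p 0.0318) and Mzb1 (3.20 ± 1.23, adjusted p 0.0438) higher. The calls of Igha and Mzb1 also changed without replicate 4 of 24m, where 4 genes of the list were called higher. Prdm1 (0.60 ± 0.36), Sdc1 (0.35 ± 0.21), Tnfsf13b (0.23 ± 0.16), Tnfrsf13c (0.18 ± 0.38) and Xbp1 (-0.03 ± 0.12) were not called.

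The genes whose pattern over the 8 libraries was most like that of Pura or Igip were found by the root mean square difference of log2 CPM, each gene centred on its own mean, among 13526 other genes of at least 1 CPM. For Pura the nearest was Igip (0.177), followed by Kif28 (0.203), Onecut2 (0.204), Inhba (0.209) and Purb (0.209). For Igip they were Kif28 (0.156), Eif2s2 (0.166), Purb (0.168), Pura (0.177) and Col7a1 (0.203). Cystm1, Pfdn1 and Purg, which fell less, ranked 2242, 1004 and 2375 by likeness to Pura, and Hbegf 6671. Kif28, a kinesin gene, had 4.55 to 5.65 CPM at 6m and 1.47 to 1.82 at 24m, and Eif2s2, a subunit of the translation initiation factor eIF2, had 94.1 to 119 and 29.3 to 42.7 CPM. Onecut2, a transcription factor, had 1.32 to 2.12 and 0.459 to 0.699 CPM. Inhba, the activin subunit gene, had 5.06 to 7.0 and 1.82 to 2.03 CPM, and Col7a1, a collagen gene, had 1.24 to 2.04 and 0.413 to 0.676 CPM. The order depended on replicate 1 of 24m. Without it Igip ranked 12 by likeness to Pura (0.148) and Purb 3 (0.097), behind the histone genes H2ac11 (0.089) and H2ac12 (0.093). All of this describes 8 libraries of 2 ages, in which any genes with a like fold change are alike.

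In structure, Pura, Purb and Igip each have their whole coding sequence in 1 exon in every annotated coding transcript, and so does the canonical transcript of Purg, which fell less. The canonical transcripts of the PUR genes end in long 3′ untranslated regions, of 4408 bases in Pura, 7313 in Purb and 4694 in Purg, against a median of 1225 over tested protein-coding genes, of which 7.45%, 1.23% and 6.26% reach these lengths. That of Igip has 173 bases, and those of Cystm1, Pfdn1 and Hbegf 494, 701 and 1456. The coding sequences of Pura and Purb are rich in G and C (65.4% and 71.6%, median 53.4%) and that of Igip is not (44.0%). The exons of Pura and Purb as a whole have 44.5% and 42.0%, against a median of 49.3%. Among all tested protein-coding genes with a single coding exon, 274 of 1161 were called lower (23.6%) and 277 higher (23.9%). Of those with more coding exons, 2753 of 15412 were called lower (17.9%) and 3931 higher (25.5%). This is a description of all genes and no test was made of it. Removing a trend over exonic length or GC content left Pura at -2.09 and -2.17, and Purb at -2.03 and -1.99, while Igip, the shortest of the 7 in exonic length, moved to -1.59 and -2.12.

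**Figure D4:**
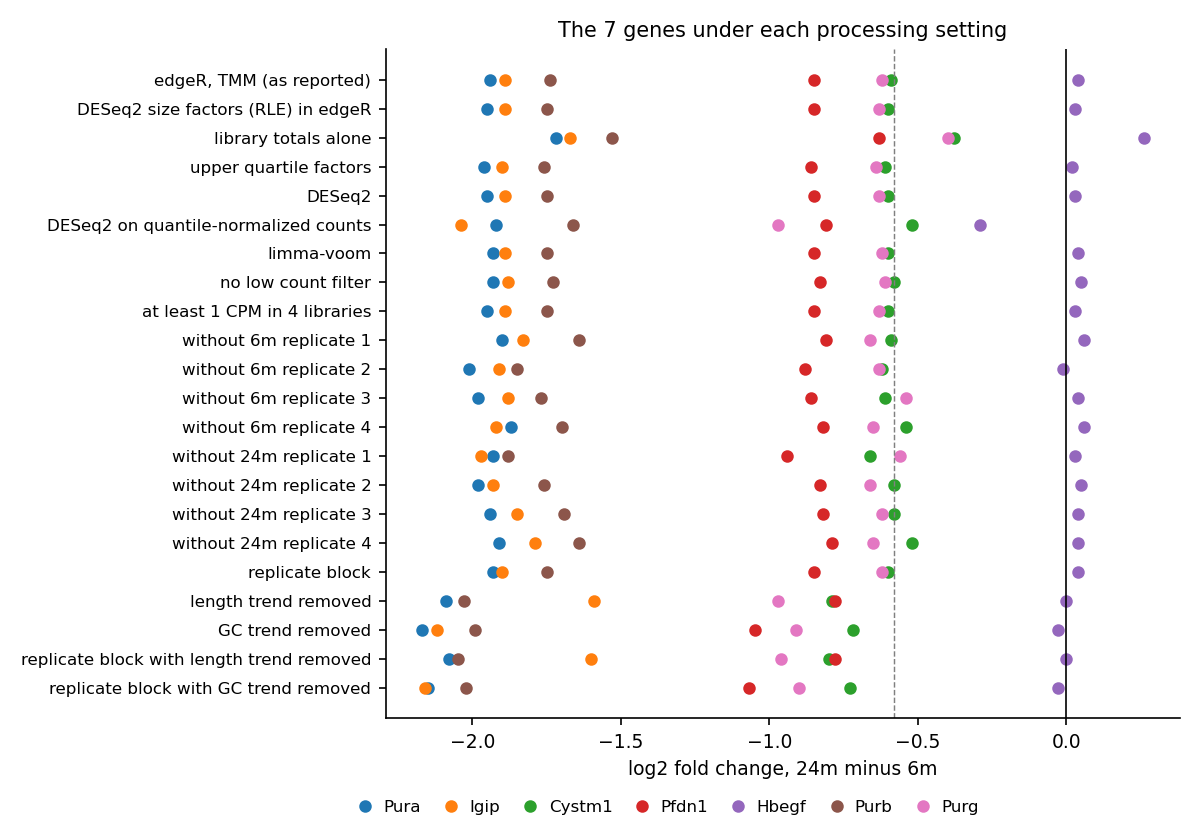
Log2 fold change (24m minus 6m) of the 7 genes under the reported fit and each of 21 other settings, 1 point per gene and setting, with the dashed line at -0.58. Pura, Igip and Purb stay below -1.5 in every row, Cystm1 and Purg lie on both sides of the dashed line, and Hbegf lies on both sides of 0.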

How the data were processed

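Poly(A) RNA of 8 brains was sequenced in paired ends. As the labels and the study's methods describe, the authors trimmed reads with Trim Galore 0.4.11, aligned them to GRCm39 with HISAT2 2.1.0 and assigned them to genes with featureCounts, and deposited the raw counts. Strand setting and multimapping reads were not described in the sources used here. Ensembl identifiers were matched to GENCODE symbols of the same assembly (22281 of 22430).

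The 16730 genes exceeding 5 counts in 4 or more of the 8 libraries were fitted together in edgeR 4.0.16 under R 4.3.3 (quasi-likelihood, TMM factors, only age as a term). Calls needed a p, adjusted by Benjamini-Hochberg over all of them, no higher than 0.05 and a change of 0.58 or more in size on the log2 scale, as in the study. The members and the gene lists were chosen with earlier results of these data known. Genes were named as all 7 members, tested genes within 250 kb of Pura, listed genes (the 3 highest and 3 lowest of the long list) and the 5 genes most like Pura or Igip. Kif5c and some neighbours were added after their values were seen. Replicates of 1 age differed beyond sampling noise (chi-square 8.17 to 424.21 per degree of freedom), so each counted. On simulated data for this comparison over 16730 genes, 163 of 200 genes given a log2 change of 1 were called, with 6 others. Alternatives were other scaling, DESeq2 1.42.0, limma-voom (limma 3.58.1), other filters, each library left out, a replicate block and removal of length or GC trends.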

Additional observations from a re-analysis of the deposited data

How the results depend on the processing

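Directions of Pura, Igip, Cystm1, Pfdn1, Purb and Purg held under all 21 alternatives, and Pfdn1 and Purb stayed past both thresholds in each. Library totals alone moved the median of all genes to 0.21 on the log2 scale. Under them Pura was at -1.72, Igip at -1.67, Cystm1 at -0.38 and Purg at -0.40, and 1746 genes were called lower overall. Cystm1 was also under the fold threshold with quantile-normalized counts (-0.52) and with no low count filter (-0.58 after rounding). Hbegf was at -0.29 with quantile-normalized counts and at -0.03 with the GC trend removed, with or without the block. GC removal put Pura at -2.17 (-2.15 with the block) and Igip at -2.12 (-2.16), and length removal put Igip at -1.59 (-1.60). Leaving out each library in turn gave -0.66 to -0.52 for Cystm1, -0.66 to -0.54 for Purg and -0.01 to 0.06 for Hbegf. For likeness to Pura, Igip went from rank 1 to 12 without replicate 1 of 24m. The cause of these shifts was not tested.

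Counts over lists moved too. In the region, 8 genes were called lower and 2 higher with library totals or length removal (with or without the block). The median there was -0.08 with library totals, -0.21 with length removal and -0.43 with GC removal, where 10 were called lower. There were 5 lower and 0 higher within 250 kb, and 9 higher within 1000 kb. Of RNA granule genes, 0 were called lower with library totals, and 5 lower and 6 higher with length removal (also with the block). EGF ligands had 2 called lower with quantile normalization, 0 with the 1 CPM filter, and 2 lower and 1 higher with length removal (also with the block). Length removal left 3 prefoldin subunits lower (3 with the block). Of ErbB receptors and sheddases, 4 were called higher with length removal and 5 to 6 over the libraries left out. CCT subunits called lower were 1 with upper quartile factors, 2 with length removal and 4 with GC removal (2 and 4 with the block), and 0 to 1 over the libraries left out. IgA and plasma cell genes called lower were 1 with library totals, 1 with the 1 CPM filter and 0 with length removal (0 with the block). Those called higher were 1 with limma-voom, 0 with the 1 CPM filter, 1 with GC removal, 4 with length removal and 1 to 4 over the libraries left out.

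The ages share replicate numbers, and deviations of same-numbered libraries correlated at 0.2709, 0.1433, 0.0778 and -0.3479. Taken from the mean of only 4 libraries per age, such deviations depend on each other and cannot decide whether the numbers pair the libraries. With the replicate block 3130 genes were called lower and 4112 higher, Purb was at -1.75, and 1 gene of the IgA list was called higher. Not every library correlated best with its own number. The block changed the call of none of Cystm1, Pfdn1, Hbegf, Purb and Purg.

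With 4 libraries per age, Dixon's ratio stayed under its 95% critical value in all 24 groups of member levels and ratios. At few reads per library, as in Areg, Jchain and Tnfrsf13b, counting error limits what can be said. Per the study's methods the libraries were pooled for sequencing. A batch of extraction is not given in the sources used here.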
